A study of Mus musculus with 6 samples.

Results

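Autophagy carries cytoplasm and organelles to the lysosome inside a double membrane, the autophagosome. The ULK1 kinase complex and the class III PI3-kinase complex start the membrane, ATG2 and ATG9 proteins feed it with lipid, and conjugation enzymes attach the ATG8 proteins (LC3 and GABARAP), to which cargo receptors such as SQSTM1 (p62) and optineurin bind. The vacuolar H+-ATPase (V-ATPase), a rotary pump with a membrane sector V0 and a cytosolic sector V1, acidifies the lysosome, where cathepsins break down protein. These genes were followed in mouse embryonic fibroblasts brought to 2 forms of TNF-driven stress, an apoptotic and a necroptotic setting by the series title.

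The members were the protein-coding genes of the deposited table whose symbol starts with Atg and a digit or with Atp6v0 or Atp6v1, the single-letter cathepsins, Lamp1 and Lamp2, and Sqstm1, Tfeb, Ulk1, Becn1, Map1lc3a, Map1lc3b, Gabarap and Optn. They numbered 68 of 48897 genes. Of these 68, 64 had a count in any library and 57 passed the low-count filter and were tested among 18563 genes. Ctse, Ctsj, Ctsm and Ctsr had no count in any library. Atp6v0d2, Atp6v1b1, Atp6v1c2, Atp6v1e2, Atp6v1g3, Ctsg and Ctsq had at most 10 counts in a library and were not tested. The rule used gene names only and no measured value.

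Poly(A)-selected RNA was sequenced from C57BL/6 mouse embryonic fibroblasts at passages 5 to 7. All 3 groups were of this strain and held 2 libraries each. The control group received phosphate-buffered saline (PBS), the TC group TNF-α with cycloheximide, and the TCZ group TNF-α, cycloheximide and z-VAD-fmk. TNF-α is a cytokine of inflammation, cycloheximide an inhibitor of translation and z-VAD-fmk a broad inhibitor of caspases. The sources used here give no dose, treatment time or number of embryos. TNF-α was only given together with cycloheximide, and no group received z-VAD-fmk alone, so the agents' own effects cannot be told apart. In such bulk samples, fewer cells of a type and less RNA per cell cannot be told apart either.

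Library totals lay between 24922627 and 52909926 counts. Control 2 and TCZ 2 differed from the remaining 4 libraries, with the lowest totals and the lowest counts of the small RNAs Rn7s1 (1338 and 4) and Rnu1a1 (3 and 1). Results without these 2 libraries are therefore also given below for some, not all, of the members whose call was then lost. All 10 fibroblast markers were detected, with a summed level of 34639 to 37447 CPM (counts per 1e+06 counts) in control, 33003 to 33362 with TC and 34593 to 37604 with TCZ. Of these 10, 2 were higher and 7 lower in TC than in control, 1 higher and 3 lower in TCZ than in control, and 6 higher and 2 lower in TCZ than in TC, and their part in the results was not tested. Macrophage markers summed to 15.5 to 15.8 CPM in control, 13.9 to 16.8 with TC and 27.8 to 29.7 with TCZ, and 4 of 11 (Itgam, Lyz2, Cd68 and Mpeg1) were higher in TCZ than in control. Macrophages are rich in lysosomal enzymes, and the part of these markers in the results below was not tested. Endothelial markers summed to 11.99 to 12.9 CPM in control, 139.5 to 146.3 with TC and 55.8 to 56.8 with TCZ. Kdr alone was at 144 and 138 CPM with TC and 40.7 and 39.0 with TCZ. Pecam1 was at 0.0206 and 0.133 CPM in control, 0.185 and 0.101 with TC, and 10.9 and 10.8 with TCZ. Of the 5 endothelial markers, 1 was higher and 1 (Tek) lower in TC than in control, and 3 were higher in TCZ. Epithelial markers summed to 16.7 to 19.4, 75.7 to 82.6 and 13.5 to 17.7, with Krt19 alone at 69.4 and 63.7 under TC. Of these 6, 5 were higher in TC, and 1 higher and 1 lower in TCZ. The part of both sets in the results was not tested. Trophoblast markers, listed because several single-letter cathepsins are placental enzymes, stayed at or below 0.862 CPM in sum.

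The members took a larger share of all reads in the treated cells. Their share of the counts was 0.675% and 0.667% for control, 0.773% and 0.780% for TC, and 0.881% and 0.845% for TCZ. Sqstm1 alone accounted for much of the gain in TC. Without Sqstm1 the shares were 0.636% and 0.628%, 0.667% and 0.666%, and 0.748% and 0.723%. The groups did not overlap on either measure, and TCZ was highest on both.

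In TC against control, 25 of the 57 tested members rose and 13 fell (edgeR quasi-likelihood test, adjusted p below 0.05), against a background of 31.6% of all tested genes higher and 29.2% lower (60.7% called). The median log2 fold change of the members was 0.14, beside 0.02 for all genes. In TCZ against control, 35 rose and 8 fell, against a background of 31.5% higher and 28.6% lower (60.1% called), with a median of 0.33 beside 0.05. In TCZ against TC, 23 rose and 9 fell, against 28.2% higher and 27.9% lower (56.1% called), with medians of 0.13 and 0.02. The share of members called in either direction was 66.7%, 75.4% and 56.1%, which was above the background in TCZ against control by more than in TC against control and at the background in TCZ against TC. These comparisons share libraries, so their counts are not independent of each other.

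Changes of at least 2-fold were fewer. They numbered 10 higher and 4 lower in TC against control (background 17.6% and 11.7%), 11 and 3 in TCZ against control (18.3% and 13.8%), and 4 and 3 in TCZ against TC (11.6% and 11.7%). The libraries of the groups did not overlap for 51, 50 and 46 of the 57 members, where 79.6%, 77.9% and 78.5% of all tested genes did not overlap. The balance depended on the scaling. With library totals in place of TMM factors (trimmed mean of M-values, which correct totals for RNA composition), the log2 median over all tested genes shifted by -0.14, -0.20 and -0.06. The members then split 20 higher and 20 lower in TC against control, 25 and 13 in TCZ against control and 22 and 12 in TCZ against TC. Without control 2 and TCZ 2 the splits were 21 and 15, 32 and 8, and 28 and 8. Leaving out TCZ 1 lowered the rises in TCZ against TC from 23 to 15. The totals lower nearly all differences from control. Member values under them are given below for several results where a call ended or began or a size moved by over 1.5 times.

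Each member was also placed by its call in TC and in TCZ, both against the same control libraries. Of the 57, 23 were higher in both and 6 lower in both. A further 10 were higher and 1 lower only by the call in TCZ, and 1 was higher and 5 lower only by the call in TC. Ulk1 and Ctsb were lower in TC and higher in TCZ, while Atg2b was higher in TC and lower in TCZ. The other 8 passed in neither.

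**Figure D1:**
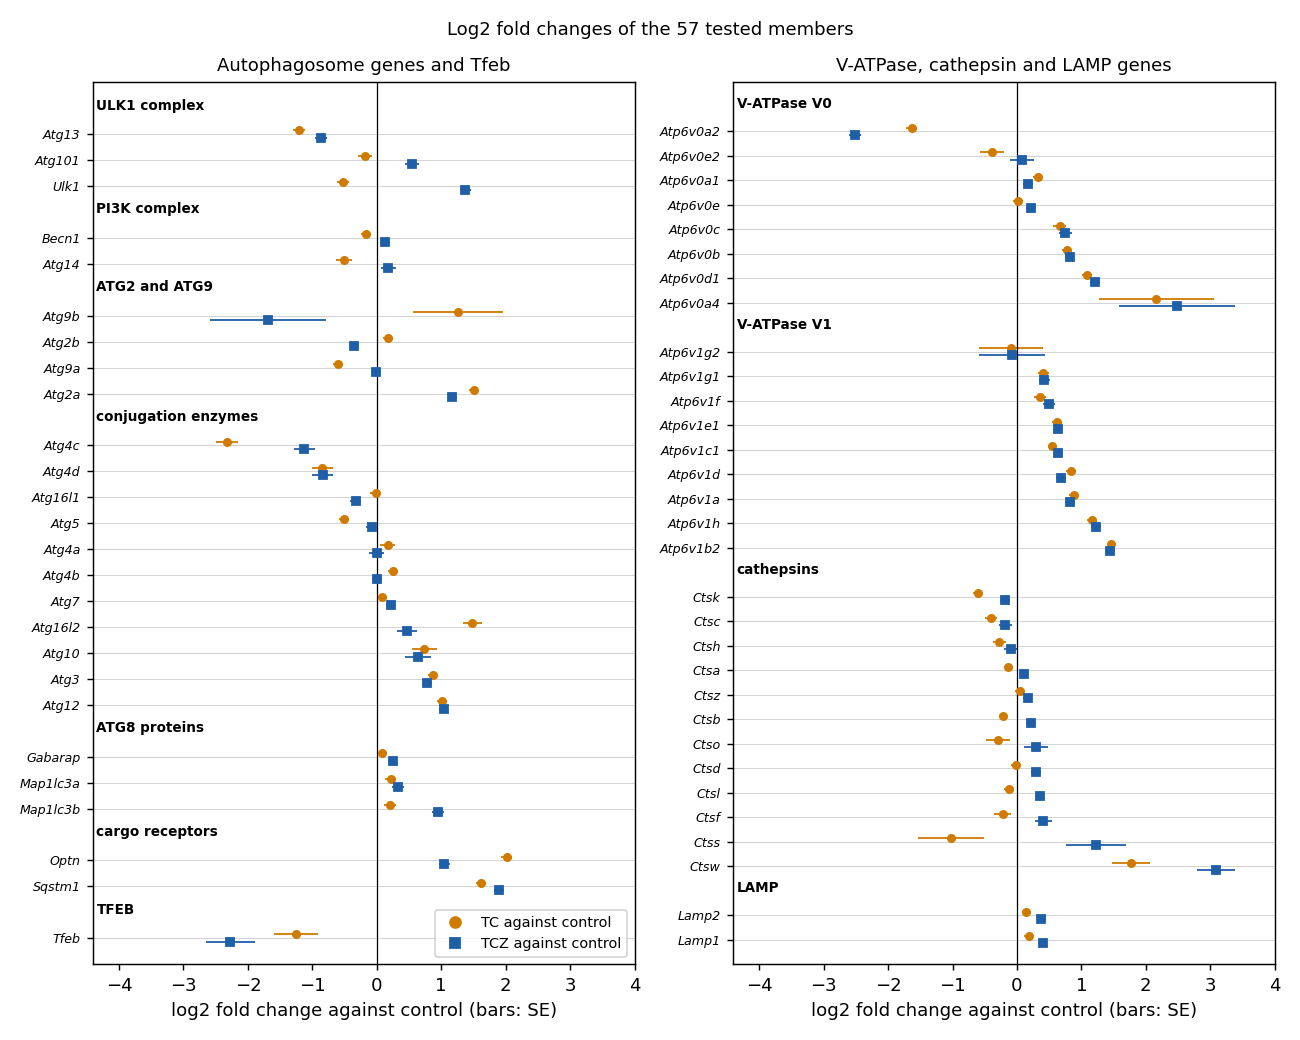
Log2 fold changes of the 57 tested members against control, by role, for TC (circles) and TCZ (squares), with standard errors as bars. V1 sector genes other than Atp6v1g2 lie right of 0 in both treatments, Ulk1 lies on opposite sides of 0 in TC and TCZ, and Atp6v0a2 is lowest in TCZ at -2.51.

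Both member cargo receptors, Sqstm1 and Optn, rose in both treatments. Sqstm1 (chromosome 11, 50200152 to 50210820, minus strand, mm10) encodes p62, which links ubiquitinated cargo to LC3 and is also a scaffold in TNF signalling. Its level was 377 and 352 CPM under control, 1083 and 1159.6 under TC, and 1449.7 and 1264 under TCZ. Both treated groups lay far above control, and both TCZ libraries lay above both TC libraries. The log2 fold change was 1.62 ± 0.08 SE, adjusted p = 7.31e-14 in TC and 1.90 ± 0.08 SE, adjusted p = 4.86e-15 in TCZ, or 3.07-fold and 3.72-fold. The step from TC to TCZ was 0.28 ± 0.08 SE, adjusted p = 0.00426, and this call was lost without TC 1, without TCZ 1 or without the low-count filter.

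Optn (chromosome 2, 5020519 to 5064112, minus strand) encodes optineurin, a ubiquitin-binding receptor of mitochondria and bacteria that also restrains NF-kB signalling. Its level was 16.4 and 16.6 CPM under control, 65.4 and 67.8 under TC, and 35.9 and 32.0 under TCZ. TC was highest and TCZ intermediate, with no overlap between any of the groups. Optn rose by 2.01 ± 0.08 SE, adjusted p = 4.27e-15 in TC and by 1.05 ± 0.08 SE, adjusted p = 4.24e-10 in TCZ, and was lower in TCZ than in TC (-0.96 ± 0.08 SE, adjusted p = 9.51e-10). The receptors therefore took different orders over the groups, Sqstm1 being highest in TCZ and Optn in TC. Of 10 related receptor and receptor-control genes, 5 rose and 1 fell in TC, and 7 rose and 1 fell in TCZ, which library totals made 4 and 2 in TC and 4 and 2 in TCZ. Tbk1, the kinase that phosphorylates optineurin and p62, was at 28.9 and 31.2 CPM under control, 62.9 and 62.8 under TC, and 59.6 and 59.4 under TCZ (1.07 ± 0.07 and 0.99 ± 0.08 SE against control, adjusted p = 3.87e-11 and 1.79e-10). Keap1, the NRF2 inhibitor that p62 can sequester, fell from 36.0 and 32.1 CPM to 15.2 and 15.7 with TC and 13.9 and 12.6 with TCZ.

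The genes whose log2 CPM followed Sqstm1 most closely over the 6 libraries were Tnfrsf12a, Zc3h15, Fosl1, Maff and Il15ra, out of 9788 protein-coding genes whose mean reached 5 CPM. Pearson's r was 0.9992 to 0.9998 (n = 6 libraries in 3 groups, a pseudocount of 0.5 CPM), given as a description because the points share their group steps. Tnfrsf12a encodes a TNF-family receptor, and Fosl1 and Maff encode bZIP transcription factors. The sizes of their changes differed from that of Sqstm1, from 0.60 for Zc3h15 to 3.05 for Il15ra in TC against control.

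In the ULK1 complex, the kinase gene turned from low in TC to high in TCZ. Ulk1 (chromosome 5, 110784489 to 110810121, minus strand), the kinase that starts autophagosome formation, was at 30.7 and 30.1 CPM under control, 19.7 and 22.7 under TC, and 83.1 and 73.9 under TCZ. TC lay below control and TCZ above it, without overlap. Ulk1 fell in TC (-0.52 ± 0.09 SE, adjusted p = 1.93e-05), rose in TCZ against control (1.37 ± 0.08 SE, adjusted p = 4.51e-12) and was 3.72-fold higher in TCZ than in TC (1.89 ± 0.09 SE, adjusted p = 6.91e-14). This was the largest difference between the treatments among members with a mean of at least 5 CPM.

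Its partner genes did not all move alike. Atg13 (chromosome 2, 91674612 to 91710599, minus strand), the regulatory subunit, was at 28.6 and 29.6 CPM under control, 12.7 and 12.6 under TC, and 15.4 and 16.8 under TCZ. Both treatments lay below control, TC 2.30-fold and TCZ 1.81-fold (-1.20 ± 0.09 and -0.86 ± 0.09 SE on the log2 scale, adjusted p = 1.84e-10 and 5.26e-08). Atg101, which stabilises ATG13, was at 13.9 and 13.7 CPM under control, 13.0 and 11.4 under TC, and 21.5 and 18.6 under TCZ, with TCZ above the other groups (0.55 ± 0.11 SE, adjusted p = 0.000138 against control, 0.73 ± 0.11 SE, adjusted p = 4.94e-06 against TC). The former was 0.35 under library totals. In TC Atg101 was at -0.18 ± 0.11 (adjusted p = 0.154), or -0.32 (adjusted p = 0.0126) under library totals.

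The paralog Ulk2, which is not a member, was at 59.5 and 54.7 CPM under control, 16.1 and 17.2 under TC, and 26.2 and 25.4 under TCZ and fell in both treatments (-1.78 ± 0.08 SE, adjusted p = 3.54e-14, and -1.15 ± 0.08 SE, adjusted p = 5.4e-11). Per length, on the authors' RPKM scale, Ulk1 made up 35.6% and 37.1% under control, 56.6% and 58.5% under TC, and 77.3% and 75.6% under TCZ of the ULK1 and ULK2 transcripts. The share of Ulk1 thus rose stepwise from control over TC to TCZ, although its own level was lowest in TC. Of the 7 related genes of this complex and its AMPK control, 1 rose and 2 fell in TC and 1 rose and 4 fell in TCZ (with library totals, 1 and 4 in TC and 1 and 4 in TCZ). Prkab1, an AMPK subunit, rose by 0.92 and 0.58, and Stk11, the AMPK-activating kinase LKB1, fell by 1.06 and 1.24 on the log2 scale.

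In the class III PI3-kinase complex, the TC libraries of Becn1 and Atg14 were the lowest. Becn1, the scaffold beclin 1, was at 59.9 and 55.9 CPM under control, 52.9 and 50.4 under TC, and 66.5 and 59.9 under TCZ. Control overlapped TCZ. Becn1 passed in TCZ against TC (0.29 ± 0.08 SE, adjusted p = 0.0027). That call was lost without TC 2, without TCZ 1 or without the low-count filter. It passed in neither comparison with control (-0.17 ± 0.08 and 0.13 ± 0.08, adjusted p = 0.0671 and 0.164). Under library totals Becn1 was at -0.31 in TC (adjusted p = 0.00025) and -0.07 in TCZ (adjusted p = 0.317). The result in TC passed in 5 alternatives and was -0.22 without control 2 and TCZ 2. Atg14, which directs the complex to autophagosome sites, was at 11.0 and 10.5 CPM under control, 7.27 and 7.84 under TC, and 12.7 and 11.5 under TCZ. It was lower in TC (-0.51 ± 0.12 SE, adjusted p = 0.000798) and higher in TCZ than in TC (0.69 ± 0.12 SE, adjusted p = 4.33e-05). Among 8 related genes, 5 rose and 2 fell in TC and 4 rose and 4 fell in TCZ (with library totals, 3 and 3 in TC and 1 and 4 in TCZ), with Uvrag at 0.68 and 0.58. Nrbf2, a subunit of the ATG14 complex, went from 15.3 and 13.1 CPM in control to 6.70 and 4.88 in TCZ (-1.27 ± 0.15 SE, adjusted p = 2.2e-07). Wdr45b rose by 0.44 and Wdr45 fell by 0.61 in TCZ on the log2 scale, both encoding phosphoinositide-binding WIPI proteins.

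The ATG2 lipid transporters exchanged ranks. Atg2a (chromosome 19, 6241664 to 6262304, plus strand) was at 37.4 and 36.0 CPM under control, 102 and 106 under TC, and 84.9 and 80.8 under TCZ, above control in both treatments (1.502 ± 0.07 SE, adjusted p = 1.02e-13, and 1.17 ± 0.07 SE, adjusted p = 7.5e-12). Atg2b was at 84.5 and 80.2 CPM under control, 94.3 and 91.3 under TC, and 62.1 and 67.5 under TCZ, and was lower in TCZ than in control (-0.35 ± 0.07 SE, adjusted p = 0.000357, or -0.55 under library totals). Its rise in TC (0.17 ± 0.07, adjusted p = 0.0477) was lost without control 2 and TCZ 2 (adjusted p = 0.1), under library totals, without the low-count filter and without any single control or TC library. Per length, Atg2a went from 41.4% and 41.7% of the ATG2 RPKM in control to 63.2% and 65.0% with TC and 68.6% and 65.6% with TCZ. Atg9a, the scramblase of the vesicles that seed the membrane, was at 42.0 and 38.5 CPM under control, 26.0 and 26.9 under TC, and 40.0 and 39.6 under TCZ. Its TC libraries were the lowest (-0.61 ± 0.08 SE, adjusted p = 7.41e-07 against control, and 0.59 ± 0.08 SE, adjusted p = 1.83e-06 in TCZ against TC). Its TCZ libraries overlapped control, though library totals put Atg9a at -0.22 there (adjusted p = 0.011). Atg9b was at 0.247 and 0.232 CPM under control, 0.576 and 0.583 under TC, and 0.0412 and 0.124 under TCZ, which is at most 29 counts.

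The conjugation system links ATG12 to ATG5 and ATG8 proteins to lipid. Of its 11 genes, 45.5% rose and 27.3% fell in both comparisons with control. The shares of all tested genes were 31.6% and 29.2% in TC and 31.5% and 28.6% in TCZ. As counts, 5 conjugation genes rose and 3 fell in both. In TCZ against control this became 2 and 5 under library totals, and 3 and 3 without control 2 and TCZ 2 as well as without TCZ 1. The ubiquitin-like Atg12 and the E2-like Atg3 rose in both treatments. Atg12 was at 43.6 and 42.8 CPM under control, 87.1 and 86.7 under TC, and 90.1 and 87.4 under TCZ (1.01 ± 0.07 and 1.04 ± 0.07 SE, adjusted p = 5.06e-11 and 3.54e-11). Atg3 was at 41.1 and 40.3 CPM under control, 73.8 and 74.7 under TC, and 71.7 and 68.3 under TCZ (0.87 ± 0.07 and 0.78 ± 0.07 SE, adjusted p = 7.19e-10 and 4.76e-09). For both genes TC and TCZ did not differ by the test (0.03 and -0.08). Atg5, the acceptor of ATG12, moved the other way in TC (-0.51 ± 0.08 SE, adjusted p = 1.8e-05). It was at 30.3 and 28.9 CPM under control, 21.2 and 20.5 under TC, and 28.8 and 27.3 under TCZ. In TCZ it was at -0.08 ± 0.08 (adjusted p = 0.435), or -0.28 (adjusted p = 0.0042) under library totals. Atg7, the E1-like enzyme of both reactions, was at 32.2 and 30.1 CPM under control, 32.7 and 33.6 under TC, and 36.8 and 35.8 under TCZ and passed only in TCZ against control (0.22 ± 0.08 SE, adjusted p = 0.0217). This call was lost under library totals (0.02, adjusted p = 0.813), without control 2 and TCZ 2 (adjusted p = 0.124), without control 2, TC 1 or TCZ 1 alone, and without the low-count filter.

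ATG16L and ATG4 genes changed by member. Atg16l2 rose from 3.67 and 3.81 CPM in control to 10.8 and 10.1 in TC (1.48 ± 0.15 SE, adjusted p = 1.36e-08) and 5.40 and 4.84 in TCZ (0.47 ± 0.16 SE, adjusted p = 0.015). The call in TCZ was lost under library totals (log2 0.26) and without control 1, control 2 or TCZ 1. The abundant Atg16l1, which carries the ATG12 and ATG5 conjugate, was at 37.0 and 34.1 CPM under control, 35.9 and 34.5 under TC, and 30.1 and 26.4 under TCZ and fell in TCZ only by the test (-0.33 ± 0.09 SE, adjusted p = 0.00244). That call was lost without control 1 or TCZ 2, and the value was -0.53 under library totals. Its share of the ATG16L RPKM remained at or above 88.4%.

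The ATG4 proteases trim ATG8 proteins before and after conjugation. Atg4c (chromosome 4, 99189158 to 99297258, plus strand) was at 11.2 and 10.5 CPM under control, 2.20 and 2.13 under TC, and 4.29 and 5.91 under TCZ. Control was highest and TC lowest, without overlap, and TC was 5.01-fold below control (-2.33 ± 0.18 SE, adjusted p = 1.33e-10). TCZ was 2.18-fold below control (-1.12 ± 0.17 SE, adjusted p = 5.16e-06) and 2.30-fold above TC (1.20 ± 0.19 SE, adjusted p = 1.02e-05). Atg4d fell by 0.85 and 0.84 on the log2 scale. It overlaps Kri1 on the other strand by 1381 bases, as Atg4a overlaps Psmd10 by 2819, and the strand setting of the counting is not given, so both values are uncertain. Atg4b, with 64.2% to 74.0% of the ATG4 RPKM in the 6 libraries, was higher in TC (0.26 ± 0.08 SE, adjusted p = 0.00917) and at 40.4 and 37.0 CPM under control, 44.8 and 47.7 under TC, and 40.8 and 36.6 under TCZ. The rise in TC was lost under library totals (0.11, adjusted p = 0.147), without control 2 and TCZ 2 (adjusted p = 0.0563), and without control 2 or TC 2 alone. In TCZ against control it was at 0.00, which became -0.20 under library totals.

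All 3 member genes of the ATG8 family were higher in TCZ than in control. Map1lc3b (chromosome 8, 121590468 to 121598047, plus strand), the LC3 gene most used as an autophagosome marker, was at 117 and 102 CPM under control, 125 and 129 under TC, and 236 and 187 under TCZ. TCZ lay above both other groups, and its libraries lay farthest from each other. Map1lc3b rose in TCZ by 0.95 ± 0.09 SE, adjusted p = 8.55e-09 against control and 0.74 ± 0.09 SE, adjusted p = 5.13e-07 against TC. In TC it was at 0.21 ± 0.09 (adjusted p = 0.0524), a result that passed in 9 alternatives. Map1lc3a, another LC3 gene, was at 43.5 and 40.7 CPM under control, 46.3 and 51.7 under TC, and 57.5 and 47.8 under TCZ (0.33 ± 0.09 SE, adjusted p = 0.00298 in TCZ), which ended at adjusted p = 0.15 under library totals. Gabarap was at 226 and 206 CPM under control, 230.1 and 229 under TC, and 268 and 244 under TCZ (0.25 ± 0.07 SE, adjusted p = 0.00695 in TCZ), with an adjusted p of 0.376 under library totals. The calls of Map1lc3a and Gabarap in TCZ were also lost without control 2 or without TCZ 1.

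The related ATG8 gene Gabarapl2 rose more, at 26.8 and 22.3 CPM under control, 67.9 and 63.5 under TC, and 69.3 and 59.2 under TCZ (1.41 ± 0.09 and 1.39 ± 0.09 SE, adjusted p = 1.19e-11 and 1.98e-11). Per length, Gabarap was the most abundant of the 5 ATG8 genes in every library, with 53.7% and 54.4% under control, 45.9% and 45.1% under TC, and 42.7% and 44.9% under TCZ of their RPKM. Map1lc3b held 18.2% and 17.6% under control, 16.3% and 16.6% under TC, and 24.6% and 22.6% under TCZ. The Map1lc3b share was thus lowest in TC and highest in TCZ, while that of Gabarapl2 was highest in TC (15.5% and 14.3%, from 7.29% and 6.72% in control).

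**Figure D2:**
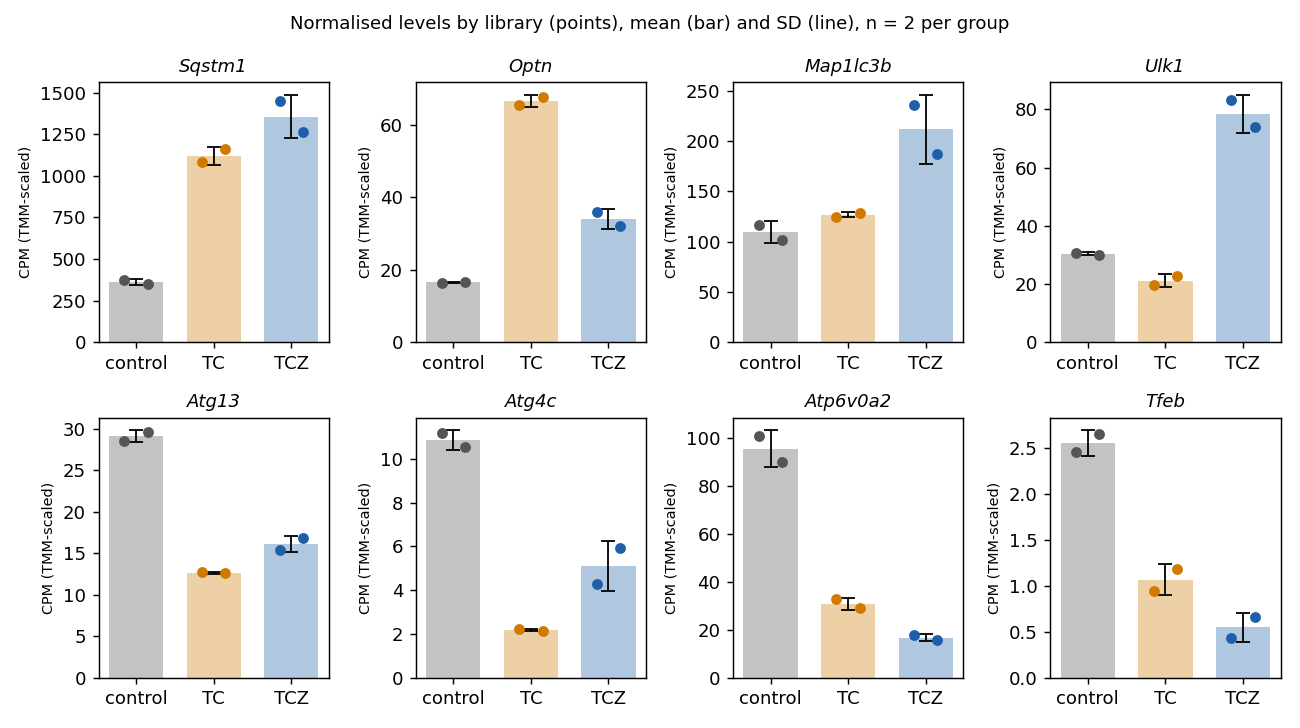
TMM-scaled CPM of 8 members in each library (points), with the mean (bar) and SD (line) of the 2 libraries per group, every axis starting at 0. Sqstm1 rises in both treatments, Optn is highest in TC, Ulk1 and Map1lc3b in TCZ, and Atg13, Atp6v0a2 and Tfeb are below control in both.

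Tfeb (chromosome 17, 47737037 to 47792416, plus strand) encodes TFEB, a transcription factor that binds CACGTG-type elements in lysosomal and autophagy genes when it is freed from mTORC1. Its transcript was scarce, at 2.45 and 2.65 CPM under control, 0.947 and 1.19 under TC, and 0.433 and 0.662 under TCZ, or 16 to 119 counts a library. Both treatments lay below control without overlap (-1.25 ± 0.34 SE, adjusted p = 0.003 in TC, and -2.27 ± 0.38 SE, adjusted p = 2.49e-05 in TCZ). The difference between TCZ and TC (-1.02 ± 0.39, adjusted p = 0.033) was lost with DESeq2, in a fit of only these groups, and without control 1, TC 2 or TCZ 1. Among 9 related genes of the same factor family and its control, 6 rose and 3 fell in TC and 6 rose and 2 fell in TCZ (with library totals, 6 and 3 in TC and 5 and 2 in TCZ). Fnip1, a folliculin partner that acts on TFEB through the Rag GTPases, was at 96.5 and 90.0 CPM under control, 204 and 199 under TC, and 311 and 317 under TCZ (1.11 ± 0.07 and 1.75 ± 0.07 SE, adjusted p = 9.6e-12 and 4.37e-15). The paralog Tfe3, named after its values were seen, was higher, at 48.9 and 46.0 CPM under control, 73.7 and 81.8 under TC, and 64.6 and 59.2 under TCZ (0.71 and 0.39), and Mitf, also named so, was lower (-0.69 and -3.41). No gene of this list that was lower in TCZ by the test reached a mean of 5 CPM. The lowest values of the list, -3.99 in TC and -4.94 in TCZ, were not those of Mitf. The directions within the list thus differed, with the falls in TCZ not seen in a transcript that reached this mean.

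The V-ATPase genes rose nearly together in both treatments. Called were 82.4% in TC, 88.2% in TCZ and 17.6% in TCZ against TC, beside 60.7%, 60.1% and 56.1% of all tested genes. Of 17 tested, 13 rose and 1 fell in TC against control (median log2 0.62), 14 rose and 1 fell in TCZ against control (0.64), and 2 rose and 1 fell in TCZ against TC (0.04). In the V1 sector, which hydrolyses ATP, 8 of 9 tested genes rose in TC and 8 in TCZ, with medians of 0.62 and 0.64, and none passed in TCZ against TC by edgeR or DESeq2. Library totals left these V1 counts at 8 and 8 against control and gave 0 higher and 2 lower in TCZ against TC. The 8 V1 calls against control also stood at 8 and 8 without control 2 and TCZ 2. In TCZ against TC, leaving these libraries out gave 1 V1 gene higher, Atp6v1f (0.29, adjusted p = 0.00828), and raised the V-ATPase rises from 2 to 4, with Atp6v0c (0.25) and Atp6v0d1 (0.22) passing and Atp6v0e2 no longer so. Library totals gave 1 and 4 there. The remaining tested V1 gene, Atp6v1g2, was at 0.503 to 0.929 CPM and overlaps Nfkbil1.

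The largest V1 rise was that of Atp6v1b2 (chromosome 8, 69088736 to 69113718, plus strand), the B subunit of the catalytic head, at 96.9 and 90.3 CPM under control, 259.9 and 258 under TC, and 262 and 246 under TCZ. It was 2.76-fold higher in TC (1.47 ± 0.07 SE, adjusted p = 1.19e-13) and 2.71-fold higher in TCZ (1.44 ± 0.07 SE, adjusted p = 1.53e-13). Atp6v1h, a regulatory subunit, followed with 100.4 and 91.2 CPM under control, 213 and 216 under TC, and 225 and 224 under TCZ (1.16 ± 0.07 and 1.23 ± 0.07 SE, adjusted p = 5.79e-12 and 2.51e-12). Atp6v1a, the catalytic A subunit, was at 161 and 145 CPM under control, 289 and 274 under TC, and 279 and 261 under TCZ (0.88 and 0.82). For these genes the treated libraries lay together, TC overlapping TCZ for Atp6v1b2 and Atp6v1a, and all of them above control. The other risers, Atp6v1c1, Atp6v1d, Atp6v1e1, Atp6v1f and Atp6v1g1, ranged from 0.36 to 0.84 in TC and from 0.42 to 0.68 in TCZ. Under library totals Atp6v1f was at 0.22 and 0.30 and Atp6v1g1 at 0.27 and 0.22.

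In the V0 sector, which forms the proton channel, Atp6v0d1, Atp6v0b and Atp6v0c rose. Atp6v0d1, which couples the sectors, was at 125 and 113 CPM under control, 250.3 and 255 under TC, and 294 and 255 under TCZ (1.08 ± 0.08 SE, adjusted p = 7.59e-11, and 1.21 ± 0.08 SE, adjusted p = 1.37e-11). Atp6v0b, a proteolipid of the ring, was at 71.3 and 68.3 CPM under control, 116 and 124 under TC, and 129 and 116 under TCZ (0.78 and 0.82). Atp6v0c, the main ring proteolipid, was at 131 and 108 CPM under control, 187 and 191 under TC, and 225 and 177 under TCZ (0.66 and 0.75), and reads may be shared with its pseudogene Atp6v0c-ps2, which had 851 counts over all libraries. Control lay below both treatments for all 3. Atp6v0e rose in TCZ only by the test (0.21 ± 0.08 SE, adjusted p = 0.0245), a call lost under library totals (0.01, adjusted p = 0.859), without control 2, TC 1 or TCZ 1, and without the low-count filter. Without TCZ 1 the V0 rises in TCZ against control fell from 6 to 3. Atp6v0a4 had at most 23 counts a library, with 1 and 5 in control. It was called higher in both treatments (2.17 and 2.49, adjusted p = 0.0411 and 0.0212). These calls were lost in 5 and 2 alternatives.

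Subunit a, which sets the membrane the pump is sent to, was the exception. Atp6v0a2 (chromosome 5, 124629052 to 124724455, plus strand), the isoform known from the Golgi and endosomes, was at 100.9 and 89.9 CPM under control, 32.6 and 29.1 under TC, and 17.6 and 15.5 under TCZ. Each step was lower than the previous one, with no overlap between groups. TC was 3.10-fold below control (-1.63 ± 0.08 SE, adjusted p = 2.22e-13) and TCZ 5.71-fold below it (-2.51 ± 0.09 SE, adjusted p = 3.88e-16), and TCZ was below TC (-0.88 ± 0.09 SE, adjusted p = 3.55e-08). All of these calls held in every alternative tried, including without control 2 and TCZ 2 (-1.72, -2.52 and -0.81).

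No other subunit a gene was called lower than control. Atp6v0a1 was at 72.5 and 72.6 CPM under control, 91.0 and 90.3 under TC, and 83.2 and 80.1 under TCZ (0.32 ± 0.07 SE, adjusted p = 0.000439 in TC, and 0.17 ± 0.07 SE, adjusted p = 0.0435 in TCZ), the values becoming 0.18 and -0.03 under library totals. The call in TCZ was also lost when any 1 of the libraries was left out and without the low-count filter. Tcirg1, the a3 isoform of lysosomes and osteoclasts, which is not a member, was at 47.1 and 45.0 CPM under control, 42.8 and 43.0 under TC, and 55.8 and 43.6 under TCZ and passed only in TCZ against TC (0.22 ± 0.09 SE, adjusted p = 0.0417). Per length, Atp6v0a2 held 37.4% and 35.2% under control, 14.9% and 13.6% under TC, and 8.20% and 8.22% under TCZ of the subunit a RPKM. Atp6v0a1 made up 34.5% and 36.5% under control, 53.4% and 54.1% under TC, and 49.7% and 54.4% under TCZ. The leading isoform in control 1 was Atp6v0a2 and in control 2 Atp6v0a1, and Atp6v0a1 led in every treated library. The summed RPKM of subunit a was 52.6 and 53.8 in control, 40.2 and 39.2 with TC and 36.9 and 34.3 with TCZ. RPKM are scaled by library totals and not by TMM. Differences between groups in this sum therefore include the scaling, whose effect on it was not tested.

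Among 12 accessory and assembly genes, 6 rose and 1 fell in TC and 4 rose and 1 fell in TCZ. With library totals these counts were 5 and 4 in TC and 2 and 3 in TCZ. Atp6ap2, the prorenin receptor and a V-ATPase partner, was at 118 and 113 CPM under control, 151 and 146 under TC, and 175 and 167 under TCZ (0.57 ± 0.07 SE, adjusted p = 4.6e-07 in TCZ). Tldc1 fell in TCZ (-0.61 ± 0.13 SE, adjusted p = 0.000293).

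**Figure D3:**
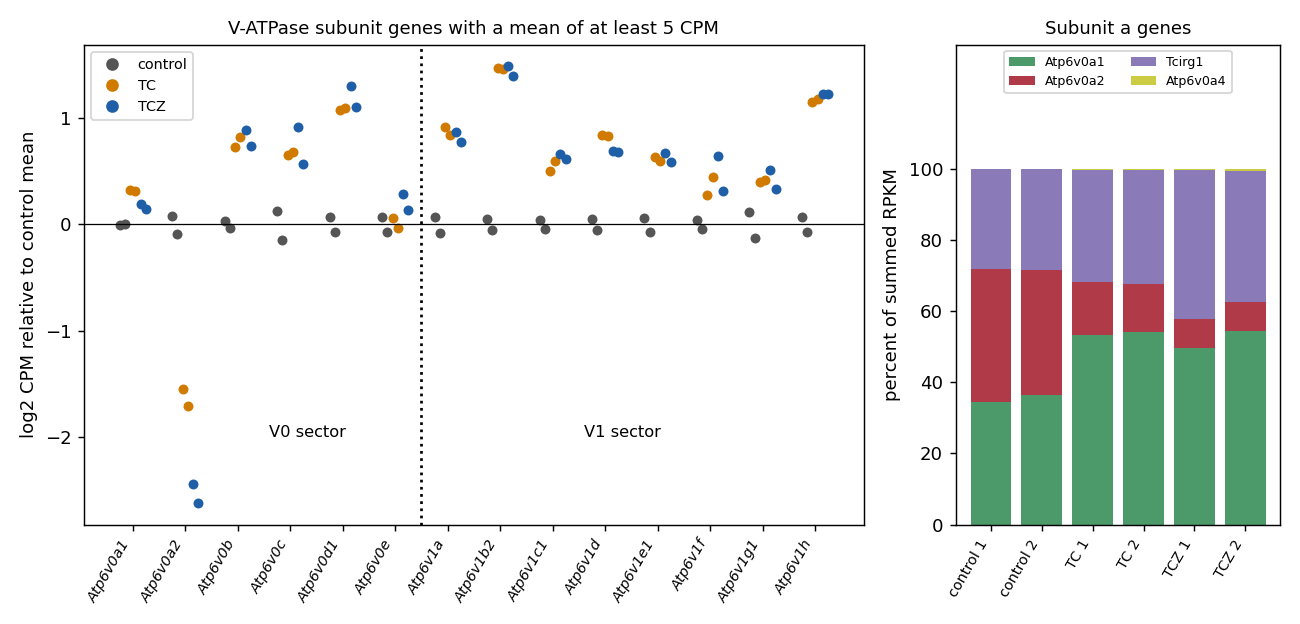
Left, log2 CPM of the V-ATPase genes averaging at least 5 CPM, relative to the control mean, each point a library; the treated libraries of the V1 genes and of Atp6v0b, Atp6v0c and Atp6v0d1 lie above control and those of Atp6v0a2 below it. Right, percent of the summed subunit a RPKM by isoform in each library, where the Atp6v0a2 part shrinks from 37.4% and 35.2% in control to 8.20% and 8.22% in TCZ.

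The cathepsins differed more between the treatments than from control. Called were 41.7% in TC, 58.3% in TCZ and 75% in TCZ against TC, beside 60.7%, 60.1% and 56.1% of all tested genes. Of 12 tested, 1 rose and 4 fell in TC against control (median log2 -0.22), 6 rose and 1 fell in TCZ against control (0.26), and 9 rose and none fell in TCZ against TC (0.43, by edgeR and by DESeq2). With library totals, the counts were 1 and 8, 3 and 3, and 9 and 0, so the balance against control depended on the scaling and the one between treatments did not. Without control 2 and TCZ 2 they were 1 and 5, 5 and 1, and 10 and 0. Without TCZ 1, 6 rose and none fell in TCZ against TC, and 3 rose and 1 fell in TCZ against control.

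Per length, Ctsd (chromosome 7, 142375916 to 142387870, minus strand), the main aspartic protease, was the most abundant cathepsin, with 48.6% to 51.9% of the cathepsin RPKM across the libraries. Its level was 854 and 779.6 CPM under control, 794 and 819 under TC, and 1059.6 and 942 under TCZ. TCZ lay above the other groups, which overlapped each other (0.29 ± 0.08 SE, adjusted p = 0.00196 against control, 0.31 ± 0.08 SE, adjusted p = 0.00134 against TC). Both calls were lost without TCZ 1, the one against TC also without TC 1, and the value against control was 0.09 under library totals. Ctsl (chromosome 13, 64361890 to 64370748, minus strand), a cysteine endopeptidase, was at 464 and 439 CPM under control, 414 and 417 under TC, and 603 and 548 under TCZ, with TC lowest and TCZ highest (0.35 ± 0.07 SE, adjusted p = 0.000233 against control, 0.47 ± 0.07 SE, adjusted p = 8.7e-06 against TC). Both of these calls held in every alternative, the one against control at 0.15 under library totals. Ctsb (chromosome 14, 63122462 to 63145923, plus strand), a cysteine protease released into the cytosol when lysosomes leak, was at 497 and 462 CPM under control, 411 and 417 under TC, and 596 and 522 under TCZ and rose in TCZ against TC (0.43 ± 0.08 SE, adjusted p = 4.59e-05). Its fall in TC (-0.21) and rise in TCZ (0.22) against control were each lost in several alternatives and were -0.36 and 0.02 under library totals, and it overlaps Fdft1 by 774 bases on the other strand.

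Ctsk, the collagen-degrading cathepsin of bone and fibroblasts, was at 124 and 117 CPM under control, 79.4 and 78.6 under TC, and 110.1 and 102 under TCZ. It fell in TC (-0.61 ± 0.07 SE, adjusted p = 1.87e-07) and was higher in TCZ than in TC (0.43 ± 0.07 SE, adjusted p = 3.65e-05). Ctsa, Ctsf and Ctso also passed in TCZ against TC, at 0.24, 0.63 and 0.58, the calls of Ctsa and Ctso being lost without TC 1 or TCZ 1, and Ctsc, Ctsh and Ctsz were at 0.22, 0.18 and 0.12 and did not pass. The scarce Ctss, a protease of antigen-presenting cells, was at 0.762 and 0.464 CPM under control, 0.35 and 0.261 under TC, and 1.42 and 1.53 under TCZ (2.26 ± 0.49 SE, adjusted p = 0.000518 in TCZ against TC). The sum of the macrophage markers was highest in TCZ as well, with 4 of 11 higher than in control and 4 higher than in TC by the test. Their part in this value was not tested. Ctsw, a protease of cytotoxic lymphocytes, was at 0.742 and 0.464 CPM under control, 2.16 and 2.11 under TC, and 5.21 and 5.46 under TCZ (3.09 ± 0.29 SE, adjusted p = 4.98e-09 in TCZ), and overlaps Fibp by 10 bases on the other strand.

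Both LAMP genes, which encode the most abundant lysosomal membrane glycoproteins, rose in TCZ. Lamp1 (chromosome 8, 13159161 to 13175338, plus strand) was at 1029.7 and 912 CPM under control, 1122 and 1091 under TC, and 1328 and 1232 under TCZ, and Lamp2 (chromosome X, 38401357 to 38456463, minus strand) at 486 and 442 CPM under control, 520.3 and 506 under TC, and 616 and 593 under TCZ. TCZ was highest in both genes, without overlap. The log2 change in TCZ was 0.40 ± 0.07 SE, adjusted p = 8.33e-05 for Lamp1 and 0.38 ± 0.07 SE, adjusted p = 9.25e-05 for Lamp2, which library totals lowered to 0.20 and 0.18. The change of Lamp1 in TC (0.19 ± 0.07, adjusted p = 0.0332) was lost in 8 alternatives, without control 2 and TCZ 2 among them. That of Lamp2 did not pass (0.14 ± 0.07, adjusted p = 0.0888), though it passed in 5 alternatives. In TCZ against TC both passed (0.21 and 0.24), and both lost the call without TC 1, TC 2 or TCZ 1 or without the low-count filter. Per length, Lamp1 was the most abundant member in control (470.2 ± 15.8 RPKM, SD, n = 2), before Ctsd at 452 ± 5.44, and Sqstm1 was the most abundant in TC (541 ± 25.3) and TCZ (629.6 ± 35.9).

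Among other lysosomal hydrolases, falls outnumbered rises in TC, and rises outnumbered falls in TCZ. Called were 61.8% in TC, 61.8% in TCZ and 82.4% in TCZ against TC, beside 60.7%, 60.1% and 56.1% of all tested genes. Of 34 tested, 6 rose and 15 fell in TC against control (median -0.17), 17 rose and 4 fell in TCZ against control (0.22), and 26 rose and 2 fell in TCZ against TC (0.41). With library totals the counts were 4 and 23, 8 and 7, and 25 and 2. Without control 2 and TCZ 2 they were 4 and 17, 19 and 1, and 28 and 2. Without TCZ 1 the counts were 9 and 3 in TCZ against control and 20 and 1 in TCZ against TC. The phospholipase Pla2g15 fell in both treatments (-1.06 and -0.71). Idua, which cleaves glycosaminoglycans, was among the 2 that were lower in TCZ than in TC (-0.34), and was named for that after its values were seen.

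**Figure D4:**
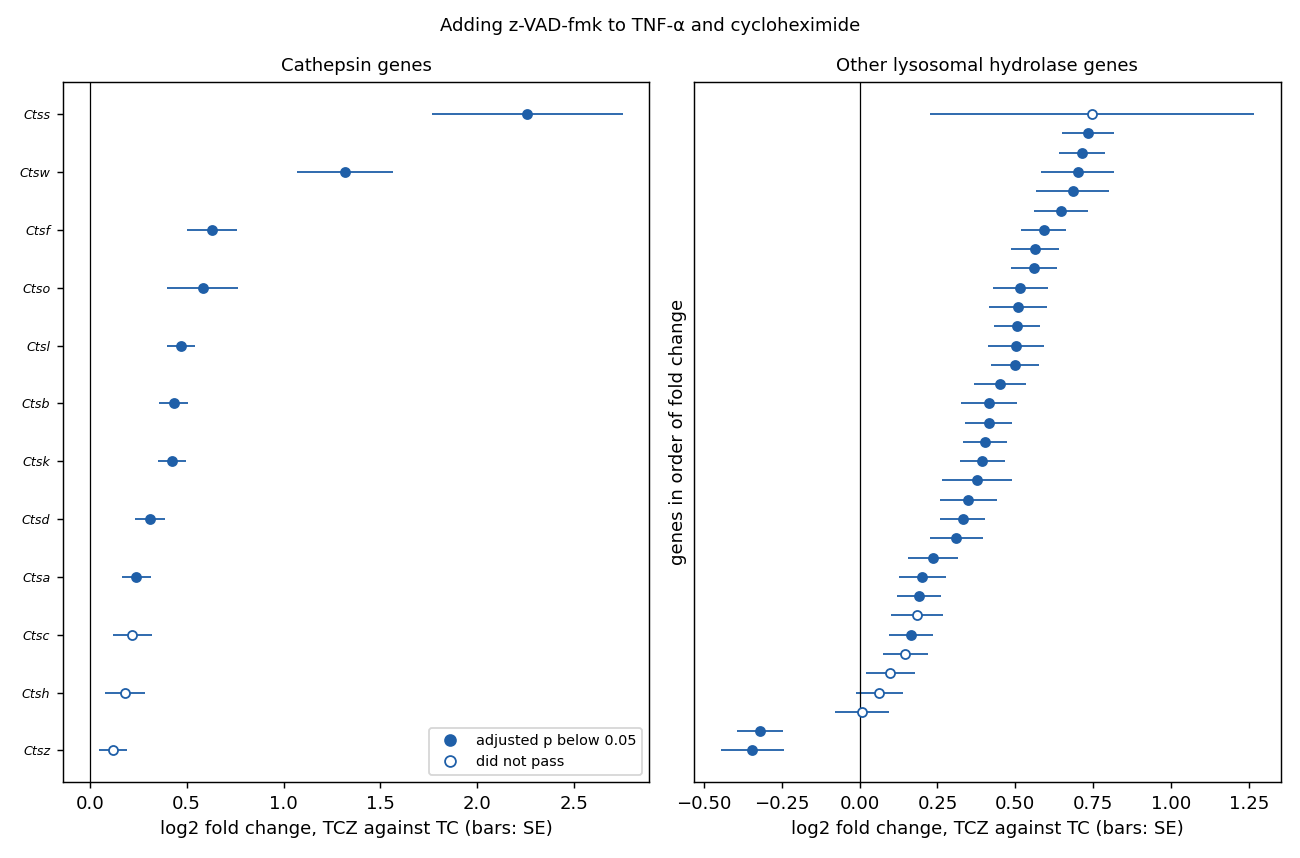
Log2 fold changes of TCZ against TC with standard errors as bars, for the 12 tested cathepsins (left) and 34 other lysosomal hydrolases (right, in order of fold change and without names); filled points passed the test. All cathepsins lie right of 0, from 0.12 for Ctsz to 2.26 for Ctss, and 2 hydrolases passed to the left of 0.

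Promoters were read because most V-ATPase genes rose against control and most cathepsin and other hydrolase genes rose in TCZ against TC. TFEB-family factors are known to bind CACGTG in such genes. The sets did not move alike in TC, where 13 V-ATPase genes rose and 1 fell, and 1 cathepsin rose and 4 fell. RefSeq promoter windows on GRCm38.p6, from 250 bases before to 50 after each start, were found for 54 of the 68 members. The palindrome CACGTG was in 13 of 45 tested members with a window (28.9%), in 11.0% of 12782 tested genes and in 7.15% of all 32851 windows. The longer TCACGTGA, which contains it, was in 6 of the 45 and in 1.98% of tested genes, and the 10-base CLEAR palindrome, which contains both, was in 0 and 0.696%. The antioxidant-type TGACNNNGC, searched on both strands, was in 7 of the 45 and in 16.5% of tested genes. Of 2 NF-kB-type motifs of 10 bases, also searched on both strands, the stricter was in 0 of 45 and 2.03%, and the looser in 2 of 45 and 7.21%. A match describes the letters in the window and is no evidence of binding.

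The members with CACGTG were Atg3, Atg5, Atg7, Atg14, Atp6v0b, Atp6v0d1, Atp6v0e, Atp6v1a, Ctsa, Ctsd, Ctsf, Ctsl and Lamp1. Of these 13, 5 rose and 2 fell in TC (median log2 0.01), 10 rose and 0 fell in TCZ against control (0.35), and 8 rose and 0 fell in TCZ against TC (0.21). The 32 without it counted 13 and 8 (0.16), 17 and 6 (0.27), and 12 and 7 (0.13). No test was made of the difference between the 13 and the 32. Of all tested genes, 31.6% were higher and 29.2% lower in TC, and 31.5% and 28.6% in TCZ. In TCZ against TC these shares were 28.2% and 27.9%. Shares for all tested genes with CACGTG are not given here. The 14 members without a window are in neither set. Among them are Atp6v1b2, Atp6v1h and Atg12, which rose in both treatments, and Atp6v0a2, which fell in both. Stretches of 6 promoters upstream of the start are given because these members rose in TCZ and represent the conjugation, V-ATPase, protease and membrane roles. They were chosen after their values were seen. They run 5′ to 3′ on the strand of the gene, with CACGTG in capitals.
Lamp1, chr8:13159080-13159160, plus strand: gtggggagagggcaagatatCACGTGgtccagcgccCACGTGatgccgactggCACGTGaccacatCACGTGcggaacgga
Ctsd, chr7:142387900-142388077, minus strand: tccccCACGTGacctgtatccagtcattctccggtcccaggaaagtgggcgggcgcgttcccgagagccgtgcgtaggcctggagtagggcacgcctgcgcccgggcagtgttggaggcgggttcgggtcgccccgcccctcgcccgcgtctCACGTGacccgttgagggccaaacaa
Ctsl, chr13:64370731-64370770, minus strand: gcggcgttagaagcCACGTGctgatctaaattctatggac
Atp6v0b, chr4:117887330-117887385, minus strand: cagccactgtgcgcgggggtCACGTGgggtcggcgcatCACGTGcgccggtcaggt
Atp6v1a, chr16:44139365-44139410, minus strand: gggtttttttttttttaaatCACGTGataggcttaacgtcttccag
Atg3, chr16:45158715-45158783, plus strand: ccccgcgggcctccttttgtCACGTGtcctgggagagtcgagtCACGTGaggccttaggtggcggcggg

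Lamp1 held 4 copies, the first base of the farthest 61 bases and of the nearest 15 bases before the start. Ctsd, Atp6v0b and Atg3 held 2 each before the start, and Ctsl and Atp6v1a held 1. The RefSeq starts used for Ctsl, Atp6v1a, Ctsd and Atg3 lie inside the deposited gene intervals. The Ctsl copy lies 236 bases before its start. The stretch printed for Atp6v1a lies wholly inside its gene interval (chromosome 16, 44085404 to 44139711). Ctsd and Ctsl rose in TCZ and did not pass in TC, while Atp6v0b, Atp6v1a and Atg3 rose in both. Atp6v0a2 and Atp6v1b2 were not among the 54 members matched.

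The wider pathway was described with 173 related genes in the table, of which 171 were tested. In TC 64 rose and 56 fell, in TCZ 77 rose and 41 fell, and in TCZ against TC 73 rose and 37 fell (medians -0.01, 0.17 and 0.17). As shares these were 37.4% and 32.7%, 45% and 24%, and 42.7% and 21.6%, beside the 31.6% and 29.2%, 31.5% and 28.6%, and 28.2% and 27.9% of all tested genes. Library totals turned the balance against control, to 50 and 83 in TC and 41 and 56 in TCZ, and gave 70 and 45 in TCZ against TC. Without control 2 and TCZ 2 the counts in TC were 58 and 61. Of 24 genes of mTORC1 and lysosomal nutrient sensing, 8 rose and 10 fell in TC and 8 rose and 8 fell in TCZ (with library totals, 7 and 13 in TC and 3 and 10 in TCZ). Lamtor3, a subunit of the Ragulator scaffold, was at 45.7 and 42.4 CPM under control, 107 and 103 under TC, and 106 and 96.5 under TCZ (1.25 ± 0.08 and 1.20 ± 0.08 SE). Depdc5, a subunit of the GATOR1 inhibitor of mTORC1, was at 16.0 and 15.3 CPM under control, 2.53 and 2.65 under TC, and 4.47 and 4.71 under TCZ (-2.60 ± 0.14 and -1.78 ± 0.14 SE). The libraries of control and treated cells did not overlap for either gene. The shares called in TC and TCZ were 75% and 66.7% for mTORC1 and nutrient sensing, beside 60.7% and 60.1% of all tested genes. For the lists below they were 69.2% and 69.2% for fusion, 76.2% and 61.9% for lysosomal membrane, and 77.8% and 77.8% for sorting. Cathepsin inhibitors were at 71.4% and 71.4%, and genes linked to damaged lysosomes at 60% and 60%.

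Of 13 genes of autophagosome and lysosome fusion, 5 rose and 4 fell in each treatment (with library totals, 4 and 6 in TC and 2 and 5 in TCZ). Epg5, a fusion tether, was higher (0.61 and 0.74) and Plekhm1, a RAB7 effector, lower (-1.16 and -1.22). Of 21 tested lysosomal membrane genes, 10 rose and 6 fell in TC and 9 rose and 4 fell in TCZ (with library totals, 5 and 8 in TC and 7 and 6 in TCZ). Tpcn1, a lysosomal cation channel, was at 56.1 and 58.1 CPM under control, 8.17 and 8.97 under TC, and 17.0 and 16.7 under TCZ (-2.73 ± 0.09 and -1.76 ± 0.09 SE), and Ctns, the cystine exporter, rose by 0.73 in TCZ. Of 9 sorting genes, 3 rose and 4 fell in TC and 4 rose and 3 fell in TCZ (with library totals, 2 and 4 in TC and 1 and 3 in TCZ, and with DESeq2 4 and 3 in TC). M6pr, the cation-dependent mannose 6-phosphate receptor that carries hydrolases to the lysosome, was at 152 and 149 CPM under control, 68.8 and 69.5 under TC, and 61.7 and 61.9 under TCZ (-1.12 ± 0.07 and -1.28 ± 0.07 SE), and Gnptg, part of the enzyme that makes its ligand, was higher (0.76 and 0.63).

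Of 7 cathepsin inhibitors, 2 rose and 3 fell in TC and 4 rose and 1 fell in TCZ (with library totals, 2 and 3 in TC and 1 and 2 in TCZ, and leaving out TCZ 1, 1 and 1 in TCZ). Serpina3g, a serpin that inhibits cathepsins, was at 2.33 and 3.45 CPM under control, 35.4 and 37.5 under TC, and 5.46 and 3.60 under TCZ. Both TC libraries stood above all others, at 3.70 ± 0.16 SE, adjusted p = 7.73e-15 against control, and TCZ was 7.74-fold below TC (-2.95 ± 0.15 SE, adjusted p = 3.25e-13). Serpinb6a fell by 0.37 and 0.32 on the log2 scale. Of 10 genes linked to damaged lysosomes, 2 rose and 4 fell in TC and 3 rose and 3 fell in TCZ (with library totals, 2 and 8 in TC and 2 and 6 in TCZ). Trim16, a TRIM protein that works with galectin-3 at damaged membranes, was at 75.9 and 72.3 CPM under control, 70.4 and 68.5 under TC, and 12.3 and 13.0 under TCZ. TCZ was 5.88-fold below control (-2.55 ± 0.08 SE, adjusted p = 5.05e-17), while TC was at -0.09 ± 0.07 (adjusted p = 0.264). Ube2ql1, a ubiquitin-conjugating enzyme of lysophagy, was higher in both treatments, at 4.06 and 3.65 CPM under control, 14.7 and 14.4 under TC, and 8.63 and 9.43 under TCZ (1.91 and 1.21).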

How the data were processed

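Per the file headers, the authors deposited 1 table of raw read counts and RPKM per gene and library, with positions on mm10. The submitters' processing notes name HISAT2 2.1.0, HTSeq and bcl2fastq; annotation, strand setting and filters were not found in these sources. The deposited RPKM equalled counts scaled by gene length and library total, within 4.97e-07. They served to compare levels between genes and for the sum of the subunit a genes. The counts were fitted with edgeR 4.0.16 under R 4.3.3: filterByExpr (minimum count 10), TMM, 1 model of all 6 libraries by group (3 residual degrees of freedom), quasi-likelihood tests and Benjamini-Hochberg adjustment over 18563 genes at 0.05. CPM are counts per 1e+06, scaled by TMM; values over groups are means ± SD, and SE belongs to log2 fold changes.

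Named were, per comparison, the 8 members with the largest change among passing members with a mean of at least 5 CPM, the 10 genes Sqstm1, Optn, Tfeb, Ulk1, Becn1, Map1lc3a, Map1lc3b, Gabarap, Lamp1 and Lamp2, and the largest rise and fall in TCZ of each of 14 related lists; other genes were named as members or after their values were seen. A few results of the related lists are not reported here. Members and lists were chosen with earlier results of these data known. Of 176 related genes, Retreg1, Castor1 and Castor2 had no row of that symbol. The procedure was tested on simulated counts. The labels do not state separate cultures for libraries of 1 group, so p-values cover only their spread, possibly a technical one. The alternatives (DESeq2 1.42.0, limma-voom 3.58.1, other scalings, filters and models, and libraries left out) are given in the closing section.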

Additional observations from a re-analysis of the deposited data

How the results depend on the processing

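Library totals in place of TMM moved the members lower from 13 to 20 in TC against control and from 8 to 13 in TCZ against control, and turned Atg4b (0.00 to -0.20, adjusted p = 0.0189) and Atp6v0a1 (0.17 to -0.0295) in TCZ against control to below 0, since this setting lowers the median of all genes by 0.20 on the log2 scale there. Leaving out 1 library at a time gave 21 to 25 members higher and 11 to 14 lower in TC against control, 25 to 34 and 6 to 8 in TCZ against control, and 15 to 27 and 7 to 9 in TCZ against TC, the 15 without TCZ 1; the cause was not tested. Where an arm was left with 1 library, it was assumed to vary like the others. Without the low-count filter 17 members were higher in TCZ against TC, and with a filter of 50 counts in 2 libraries 27. DESeq2, limma-voom, RLE size factors and a fit of only the groups compared stayed within 1.5 times of every member count. Of 113 member calls, 79 passed in every alternative and 34 were lost in at least 1. Of 58 member results that did not pass, 30 passed in no alternative and the others passed in at least 1. Deviations of same-numbered libraries correlated at 0.00607 (control and TC), 0.22 (control and TCZ) and -0.0407 (TC and TCZ). The largest joined the groups of control 2 and TCZ 2. The labels give no pairing or batch, and these correlations, from 1 difference per group, cannot exclude either. With the replicate number as a block, the members higher and lower were 25 and 13, 35 and 8, and 24 and 9. With a term for control 2 and TCZ 2 they were 24 and 16, 37 and 8, and 28 and 9. Low counts limit Tfeb, Atg9b, Atp6v0a4, Atp6v1g2, Ctss and Ctsw, and members not tested had at most 10 counts a library.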
